A study of Mus musculus with 27 samples.

Results

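The 45 genes described here encode proteins of the G2 phase and of mitosis: cyclins A and B with their kinase, the mitotic kinases, the spindle checkpoint and anaphase machinery, the centromere and kinetochore, the spindle, the cytokinetic apparatus and the condensins. They were taken by name from a list, and a gene was kept where its counts summed to at least 10 over the 27 libraries. All 45 passed, out of 22415 genes that passed and 50559 gene symbols in the count table. The organoids (mTGOs) were grown from thyroid gland cells of C57BL/6 mice of 8 to 12 weeks, as spheres of cells in Matrigel in DMEM/F12 with B27, EGF, FGF2 and the ROCK inhibitor Y27632, which all groups received. After 5 days of growth they were left unirradiated (0 Gy) or were exposed to photons at 2, 4 or 7 Gy. RNA was collected from unirradiated organoids at days 5, 7 and 11, and from each irradiated group at days 7 and 11, that is 2 and 6 days after exposure. This gave 9 groups with 3 libraries each, 1 from each of 3 cultures named mTG11, mTG12 and mTG14, and values for a group are given below in that order.

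A cell enters mitosis when cyclin B and CDK1 become active, pairs its chromosomes with the spindle under the control of Polo and Aurora kinases, and starts anaphase only once the spindle checkpoint releases CDC20 and the anaphase-promoting complex. The mRNAs of most of these proteins are made late in the cell cycle and are low or absent in resting cells, so their sum in a tissue sample is widely read as a measure of cycling cells. Ionizing radiation is known to stop cells in G1 through p53 and its target Cdkn1a, and in G2 through checkpoint kinases. In a bulk sample, fewer cells in G2 and mitosis and less of each mRNA per cell cannot be told apart, and this holds for every value below.

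Many promoters of this class carry a cell cycle homology region (CHR), which the MuvB complex recognises, close to CCAAT boxes, which NF-Y recognises. The windows used here run from 250 bases before to 50 bases after the annotated start (RefSeq, build GRCm38.p6), and 38 of the 45 members had one. Tpx2, Incenp, Kif20a, Ccna2, Aurkb, Cdc25c and Smc4 had no entry. A CHR, searched on both strands as TTTGAA or TTCGAA, was found in 30 of the 38 windows (78.9%), against 19.4% of the windows of all 27025 genes and 15% of the 13814 windows of genes with at least 10 counts here. A CCAAT on either strand was found in 30 (78.9%), against 37.9% and 38.1%. At least 2 CCAAT were present in 20 (52.6%), against 12.2% and 14%, and a CHR with a CCAAT in 27 (71.1%), against 7.7% and 6.29%. An E2F match (TTTCCCGC, TTTGGCGC or TTTCGCGC, either strand) was present in 3 member windows (7.89%), against 1.91% and 3.08%. Among 41 windows of DNA replication and G1/S genes, 13 had the E2F letters (31.7%), 8 a CHR (19.5%) and 23 a CCAAT (56.1%). These matches describe the letters in the window and do not show binding.

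The windows of 8 members are printed over 200 bases, 170 before the start and 30 after it, 5′ to 3′ in the direction of transcription, with CHR and CCAAT matches of either strand in capitals. The 6 from Ccnb2, Cdk1, Cdc20, Ube2c, Top2a and Kif11 stand for the members with a common pattern over days and doses. Of these, Ube2c was not called for the fall with dose at day 7. Bub3 and Pttg1 stand for the members that departed from the pattern. They lie at chr9:70421525-70421724 (minus strand), chr10:69352883-69353082 (minus), chr4:118437314-118437513 (minus), chr2:164769759-164769958 (plus), chr11:99024160-99024359 (minus), chr19:37376212-37376411 (plus), chr7:131560200-131560399 (plus) and chr11:43425952-43426151 (minus).
Ccnb2: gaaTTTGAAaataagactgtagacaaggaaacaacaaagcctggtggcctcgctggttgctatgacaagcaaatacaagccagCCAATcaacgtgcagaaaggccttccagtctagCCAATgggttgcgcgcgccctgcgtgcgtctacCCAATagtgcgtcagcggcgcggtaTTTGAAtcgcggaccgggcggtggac
Cdk1: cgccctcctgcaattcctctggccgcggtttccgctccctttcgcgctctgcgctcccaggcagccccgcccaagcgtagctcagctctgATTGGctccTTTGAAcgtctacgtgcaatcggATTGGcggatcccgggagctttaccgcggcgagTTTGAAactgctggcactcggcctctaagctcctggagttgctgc
Cdc20: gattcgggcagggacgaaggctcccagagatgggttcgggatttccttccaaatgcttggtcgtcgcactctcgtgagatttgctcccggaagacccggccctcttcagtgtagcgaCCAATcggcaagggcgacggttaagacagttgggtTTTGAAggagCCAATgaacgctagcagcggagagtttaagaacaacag
Ube2c: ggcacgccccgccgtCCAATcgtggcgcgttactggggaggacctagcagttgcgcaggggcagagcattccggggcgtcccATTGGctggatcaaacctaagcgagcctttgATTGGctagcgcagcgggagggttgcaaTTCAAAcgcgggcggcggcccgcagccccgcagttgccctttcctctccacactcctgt
Top2a: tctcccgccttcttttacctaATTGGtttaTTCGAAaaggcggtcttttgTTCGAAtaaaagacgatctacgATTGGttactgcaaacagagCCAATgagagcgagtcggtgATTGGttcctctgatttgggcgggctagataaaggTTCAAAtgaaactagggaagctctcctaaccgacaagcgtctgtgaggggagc
Kif11: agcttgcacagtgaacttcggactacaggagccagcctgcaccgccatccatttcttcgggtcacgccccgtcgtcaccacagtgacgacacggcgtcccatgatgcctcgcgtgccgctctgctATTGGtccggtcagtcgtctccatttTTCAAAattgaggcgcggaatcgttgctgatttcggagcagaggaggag
Bub3: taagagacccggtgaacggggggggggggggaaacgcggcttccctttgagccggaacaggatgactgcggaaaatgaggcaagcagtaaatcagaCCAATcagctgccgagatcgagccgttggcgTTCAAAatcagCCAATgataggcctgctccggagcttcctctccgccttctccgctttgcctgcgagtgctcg
Pttg1: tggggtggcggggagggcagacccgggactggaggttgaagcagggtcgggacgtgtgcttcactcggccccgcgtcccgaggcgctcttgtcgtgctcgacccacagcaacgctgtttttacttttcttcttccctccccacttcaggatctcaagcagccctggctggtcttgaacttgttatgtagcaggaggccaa
In Ccnb2 the CCAAT letters began at positions -87, -54 and -21 from the start and a CHR at position 5. In Ube2c they began at -155, -88 and -57 with a CHR at -29, and in Top2a the 4 CCAAT were followed by a CHR at -23. The Bub3 window, from a gene with little change over doses, held a CHR at -43 between 2 CCAAT, so these letters were shared by members that moved and by one that did not pass the dose tests. The Pttg1 window held neither, and the windows of Birc5, Nuf2, Nusap1 and Mad2l1 also held neither. Birc5, Nuf2 and Nusap1 fell with dose at day 7 and rose with dose at day 11, and Mad2l1 fell with dose at day 7. Lack of these letters was therefore not particular to the member that departed.

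The libraries were made with Smart3SEQ, which reads transcript 3′ ends, and held 2528866 to 5723150 counts. All values below are CPM, counts scaled to a library total of 1000000, and all tests are edgeR quasi-likelihood tests over all genes with Benjamini-Hochberg adjustment, called at an adjusted p under 0.05. A level under 3 counts (0.524 to 1.19 CPM, by library) is at the limit of counting, and 44 of the 45 members reached 3 counts in every library. The exception was Espl1, with 1 count in the lowest library. Since 3′ counts carry different efficiencies for different genes, levels are compared within a gene or, for sums, within the same set of genes only. The label of the tissue was checked against marker genes. Of the thyrocyte markers, Slc5a5 had 6 counts in all 27 libraries together, Tshr had 11 and Pax8 had 23.2, and Tg had 277, while Foxe1, Nkx2-1, Duox2 and Duoxa2 were detected. The 8 stratified epithelium markers (Krt5, Krt14, Krt13 and others) summed to 22668 to 28285 CPM at day 5, 19438 to 21799.7 at day 7 and 8817 to 10565 at day 11 without irradiation, 19218 to 25830.2 at 7 Gy at day 7 and 9872 to 15056 at 7 Gy at day 11. Fibroblast markers ranged from 10.5 to 157.5 CPM and endothelial markers reached at most 2.01 CPM. The part of cell type composition in the results below was not tested.

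Summed over the 45 members, expression was highest at day 5 and lower at each later day without irradiation. Among the groups of day 7 it was lowest at 7 Gy, and among those of day 11 it was highest at 7 Gy. The 3 libraries of day 5 had 3570.3 ± 226 CPM (SD, n = 3, as for all such values). At day 7 the sums were 1915 ± 200.3 CPM at 0 Gy, 1874 ± 299 at 2 Gy, 1628 ± 133 at 4 Gy and 1130.1 ± 77.8 at 7 Gy. At day 11 they were 670.0 ± 47.8, 670.0 ± 82.3, 919.9 ± 61.2 and 1246 ± 48.1 CPM in the same order. The order of the doses was therefore opposite at the 2 days: 7 Gy libraries held the lowest sums of day 7 and the highest sums of day 11. The 2 Gy libraries overlapped the 0 Gy libraries at both days, and the 7 Gy sums of day 11 (1219 to 1302) lay just above those of day 7 (1047 to 1201) without overlap. Without Pttg1, Bub3 and Smc4 the 7 Gy sums overlapped, at 971 to 1037 CPM at day 11 and 853 to 989 at day 7. Taken singly, 34 of the 45 members overlapped between these 2 groups, while 8 lay above and 3 below at day 11 without overlap. The shares of all genes that did so were not counted.

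**Figure D1:**
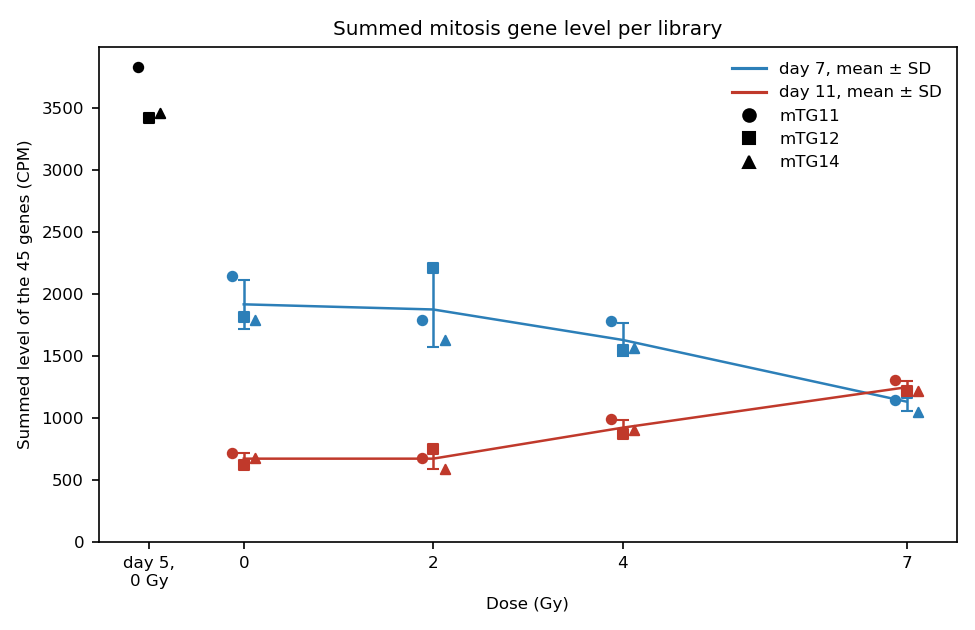
Summed CPM of the 45 members (y axis) in each of the 27 libraries by day and dose, with a symbol for each library by culture, and lines and bars for the mean and SD of days 7 and 11. At day 7 the 7 Gy libraries (1047 to 1201 CPM) lie below all other libraries of that day, and at day 11 the 7 Gy libraries (1219 to 1302 CPM) lie above all others of that day.

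The first question of the design is how unirradiated organoids change with days in culture. From day 5 to day 11, 44 of the 45 members fell, with a median log2 change of -2.65 over the members against 0.06 over all genes tested, and 20.1% of all genes fell. The decline was spread over both intervals. From day 5 to day 7, 37 members fell (background 9.62%), with a median of -0.80. From day 7 to day 11, 43 fell (background 11.7%), with a median of -1.91. Day 11 values lay below day 5 values in each of the 3 cultures for 44 members, which was not counted over all genes. The largest fall from day 5 to day 11 was that of Cdca3, a trigger of mitotic entry, at -3.69 (SE 0.24, adjusted p = 2.87e-07), and the smallest that of Bub3, a spindle checkpoint protein, at -0.64 (SE 0.10, adjusted p = 0.000318). Cdca3 had 66.5, 69.2 and 68.1 CPM at day 5, 44.6, 26.5 and 32.9 at day 7 and 6.43, 2.68 and 4.95 at day 11, with no overlap between the days. Pttg1, which encodes the separase inhibitor securin, was the 1 member that rose, by 1.62 (SE 0.15, adjusted p = 3.99e-06), as did 21.3% of all genes. Over the first interval the largest change was that of the condensin subunit Ncapg (-1.11 (SE 0.23, adjusted p = 0.00485)) and the smallest that of the centrosomal kinase Nek2 (-0.17 (SE 0.25, adjusted p = 0.694)). Ncapg had 50.3, 42.4 and 49.3 CPM at day 5 and 23.3, 17.5 and 18.7 at day 7, which were separate, while Nek2 had 8.1, 7.98 and 11.7 and 9.77, 5.7 and 6.95, which overlapped.

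**Figure D2:**
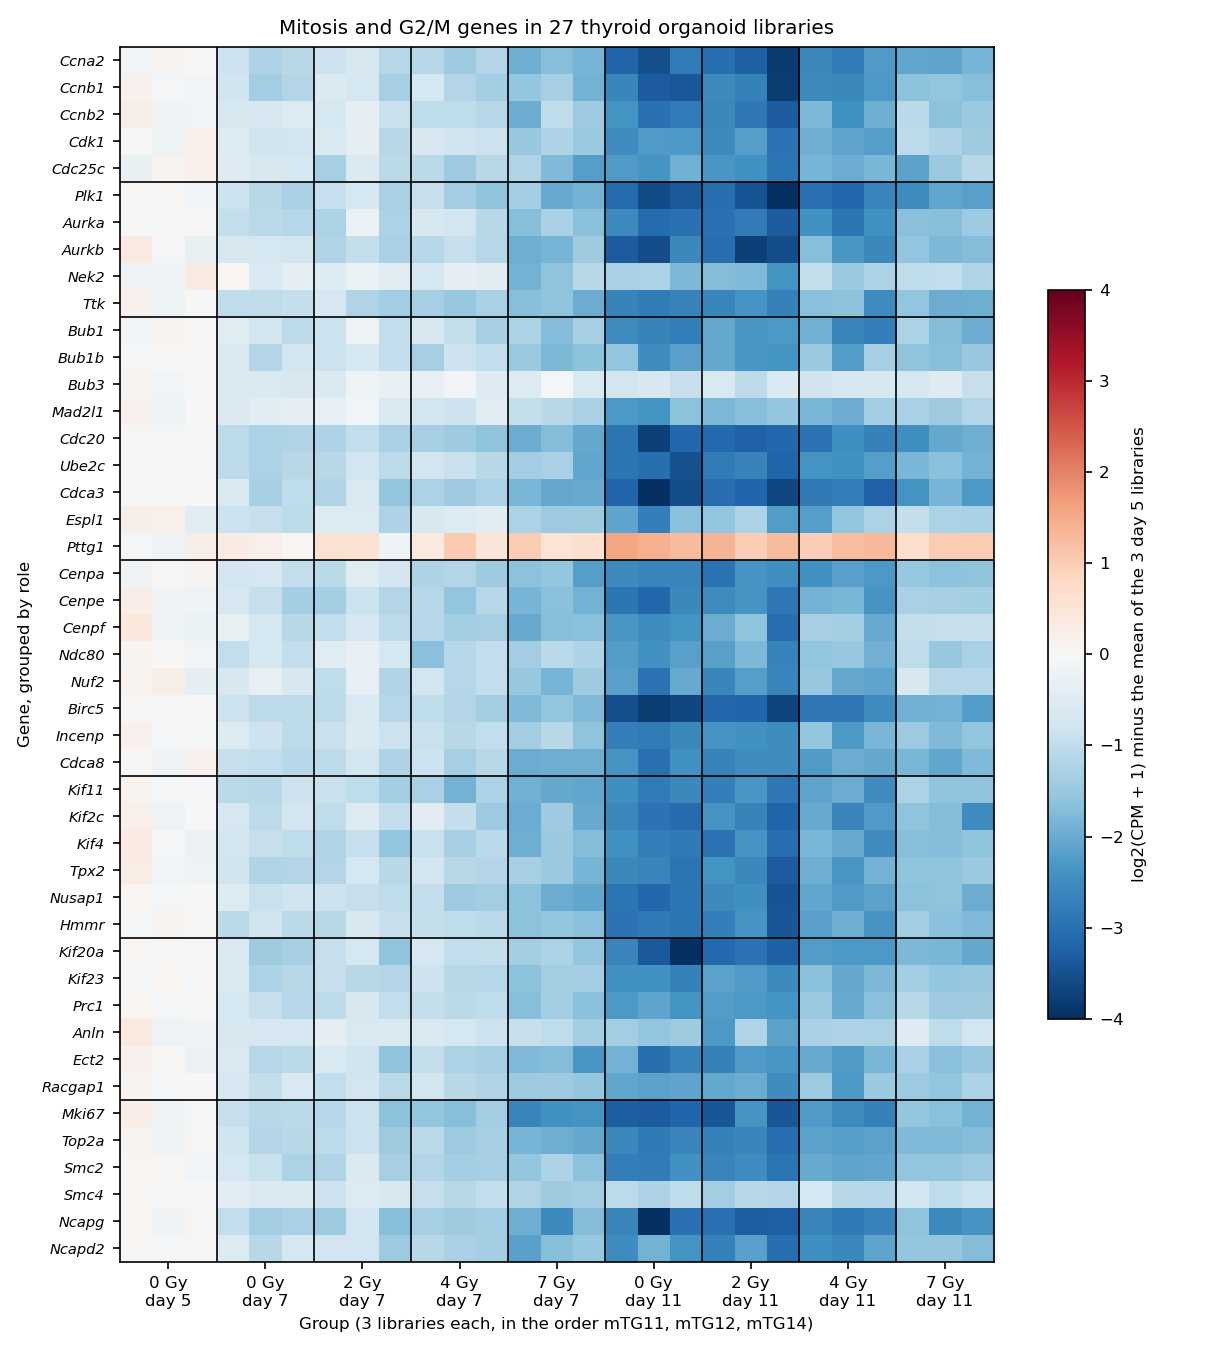
Heat map of the 45 members (rows, grouped by role) in the 27 libraries (columns, 3 for each day and dose, in the order mTG11, mTG12, mTG14), with colours for log2(CPM + 1) minus the mean of the 3 day 5 libraries, blue for lower and red for higher. In 44 rows every later group has a lower mean than day 5, with the lowest mean at 0 or 2 Gy at day 11 for 43 of them, and the Pttg1 row has a higher mean than day 5 in every later group.

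The second question is the response to dose at day 7. At 7 Gy, 30 of the 45 members were lower than at 0 Gy, where 3.75% of all genes were. The median was -0.81 against 0.01 over all genes. The 3 libraries at 7 Gy lay below the 3 at 0 Gy without overlap for 40 members, as they did for 12.6% of all genes with at least 10 counts in the day 7 libraries. The largest change was that of Nek2, with 1.75, 2.31 and 3.73 CPM at 7 Gy, all below its 0 Gy libraries, at -1.54 (SE 0.29, adjusted p = 0.0061), and the smallest that of Bub3 at 0.20 (SE 0.14, adjusted p = 0.444). With the culture as a block 37 members were called (6% of all genes), with Plk1, Bub1, Tpx2, Kif23, Anln, Smc2 and Ncapg added. At 4 Gy only Smc4, a condensin subunit, was called, at -0.52 (SE 0.10, adjusted p = 0.0191), with 0.656% of all genes lower. With the culture as a block 5 members were called at 4 Gy (2.38% of all genes), namely Smc4, Cenpa, Cenpf, Nusap1 and Mki67. Without the block, none were called when the 0 Gy mTG11 library or the 4 Gy mTG12 library was left out. At 2 Gy edgeR called 0 members (background 0.00517%), 1 had an unadjusted p under 0.05, and DESeq2 also called 0.

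On the slope over the 4 doses at day 7, which uses all 12 libraries, 33 members fell with dose (background 4.72%). The median slope was -0.12 log2 units per Gy, against 0.00 over all genes. The steepest was that of Mki67 at -0.21 (SE 0.03, adjusted p = 0.000148) per Gy and the flattest that of Bub3 at 0.02 (SE 0.02, adjusted p = 0.506). In 41 members the 7 Gy value lay below the 0 Gy value in each of the 3 cultures, which was not counted over all genes. The median log2 ratios of CPM + 1 over the members were -0.89, -0.58 and -0.75 in mTG11, mTG12 and mTG14. At 2 Gy the cultures differed in sign, with medians of -0.27, 0.32 and -0.14, the positive one in mTG12. Of 12 genes called on the slope among the 18 given with full values below, 10 remained called without any 1 library. The others were Cdk1, lost without the 7 Gy mTG11 library (edgeR adjusted p = 0.0573), and Anln, lost without any 7 Gy library or the mTG14 library at 0, 2 or 4 Gy (0.0506 to 0.119), with library totals in place of TMM factors (0.0601) and with counts thinned to the smallest library (0.0688). With the culture as a block 36 members fell with dose (6.29% of all genes), with Plk1 (edgeR adjusted p = 0.0113), Bub1 and Kif23 added, and Pttg1 was called higher (0.0486). Plk1 was also called with DESeq2 (adjusted p = 0.01753). In edgeR it was called with no filter on low counts (0.03393), a filter of 50 counts (0.0406) and unrounded counts (0.04835). Leaving out the 0 Gy mTG14, 2 Gy mTG12, 4 Gy mTG11 or 7 Gy mTG11 library also gave the call (0.03533 to 0.04455).

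The third question is the same response at day 11. Here 25 members were higher at 7 Gy than at 0 Gy, where 1.06% of all genes were, with a median of 1.14 against 0.01 over all genes. The 7 Gy libraries lay above the 0 Gy libraries without overlap for 41 members, as they did for 12.5% of all genes with at least 10 counts in the day 11 libraries, and the exceptions were Cdc25c, Bub1b and Bub3, which overlapped, and Pttg1, which lay below. The largest change was that of Aurkb at 1.77 (SE 0.40, adjusted p = 0.0427) and the smallest that of Bub3 at 0.04 (SE 0.13, adjusted p = 0.945). This count depended on single libraries: it was 7 without the 0 Gy library of mTG12, 9 without that of mTG14, 16 without that of mTG11 and 16 without the 7 Gy library of mTG11. All fits that left out a library were made without the culture block, so how far blocked counts depend on 1 library was not tested. With the culture as a block 35 members were called (3.6% of all genes), with Plk1, Ttk, Bub1, Mad2l1, Ndc80, Cdca8, Kif2c, Kif4, Ect2 and Ncapg added. Among the 18 genes given with full values below, 13 were called, 12 higher and Pttg1 lower, and Ube2c, Birc5 and Top2a remained called without any 1 library. The other 10 lost the call without at least 1, most widely Aurkb and Pttg1, which lost it without each of the 6 libraries. Cdk1 and Kif11 lost it without any 0 Gy library, and Kif11 also without the 7 Gy mTG11 library. Cenpa and Tpx2 lost it without the 0 Gy library of mTG12 or mTG14, Prc1 without that of mTG11 or mTG14, and Mki67 without that of mTG12. The edgeR adjusted p of these 6 genes then lay between 0.0507 and 0.0861. Ccnb1 lost the call without any 1 of the 6 libraries other than the 0 Gy library of mTG11 (0.056 to 0.0957), and Cdc20 without the mTG12 or mTG14 library at 0 or 7 Gy (0.059 to 0.0723). Aurkb also lost it with every library thinned to the smallest (edgeR adjusted p = 0.131), Ccnb1 likewise (0.0511), and Cdc20 with only the 2 groups in the fit (0.0506). At 4 Gy 43 members had a positive log2 change. The median was 0.57 against -0.01 over all genes, but edgeR called 0 (background 0.00502%). At an unadjusted p under 0.05, 23 members were higher, and DESeq2 called 3. The culture block called 5 (0.864% of all genes), namely Ube2c, Cenpe, Birc5, Incenp and Kif23. At 2 Gy edgeR called 0 (background 0.00%), as did DESeq2, and 0 members had an unadjusted p under 0.05 in the upward direction.

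Over the 4 doses at day 11, 30 members rose with dose (background 1.73%), with a median slope of 0.18 log2 units per Gy against 0.00 over all genes. Among the genes given with full values, the slope call of Plk1 was lost without any 7 Gy library, the mTG12 or mTG14 library at 0 Gy or the mTG12 library at 2 Gy (edgeR adjusted p of 0.0562 to 0.129), and with thinned counts (0.0698). That of Pttg1 was lost without the mTG11 or mTG12 library at 0 or 7 Gy (0.0554 to 0.121) and with library totals in place of TMM factors (0.0587), and that of Aurkb without the 7 Gy mTG11 library (0.0576). Aurkb had the steepest slope, 0.30 (SE 0.06, adjusted p = 0.0148) per Gy, and Bub3 the flattest, 0.01 (SE 0.02, adjusted p = 0.927). There were 22 members that fell with dose at day 7 and rose with dose at day 11, among them Cdk1, Ccna2, Ccnb2, Cdc20, Aurkb, Birc5, Cenpa, Kif11, Top2a and Mki67. The share of all genes with both calls was not counted. Their number cannot exceed the 344 of 19901 genes that rose with dose at day 11. In 11 members only the day 7 slope was called and in 8 only the day 11 slope, and Bub1, Bub3 and Espl1 passed on neither. Of the 8, Plk1 was called at day 7 under the alternatives given above. These calls are without the culture block. With it 36 members rose with dose at day 11 (3.78% of all genes), with Ttk, Bub1, Mad2l1, Kif2c, Racgap1 and Ncapg added, so that Bub1 was called at both days. A call at 1 day and not at the other does not show that the days differ, and the difference is tested below.

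**Figure D3:**
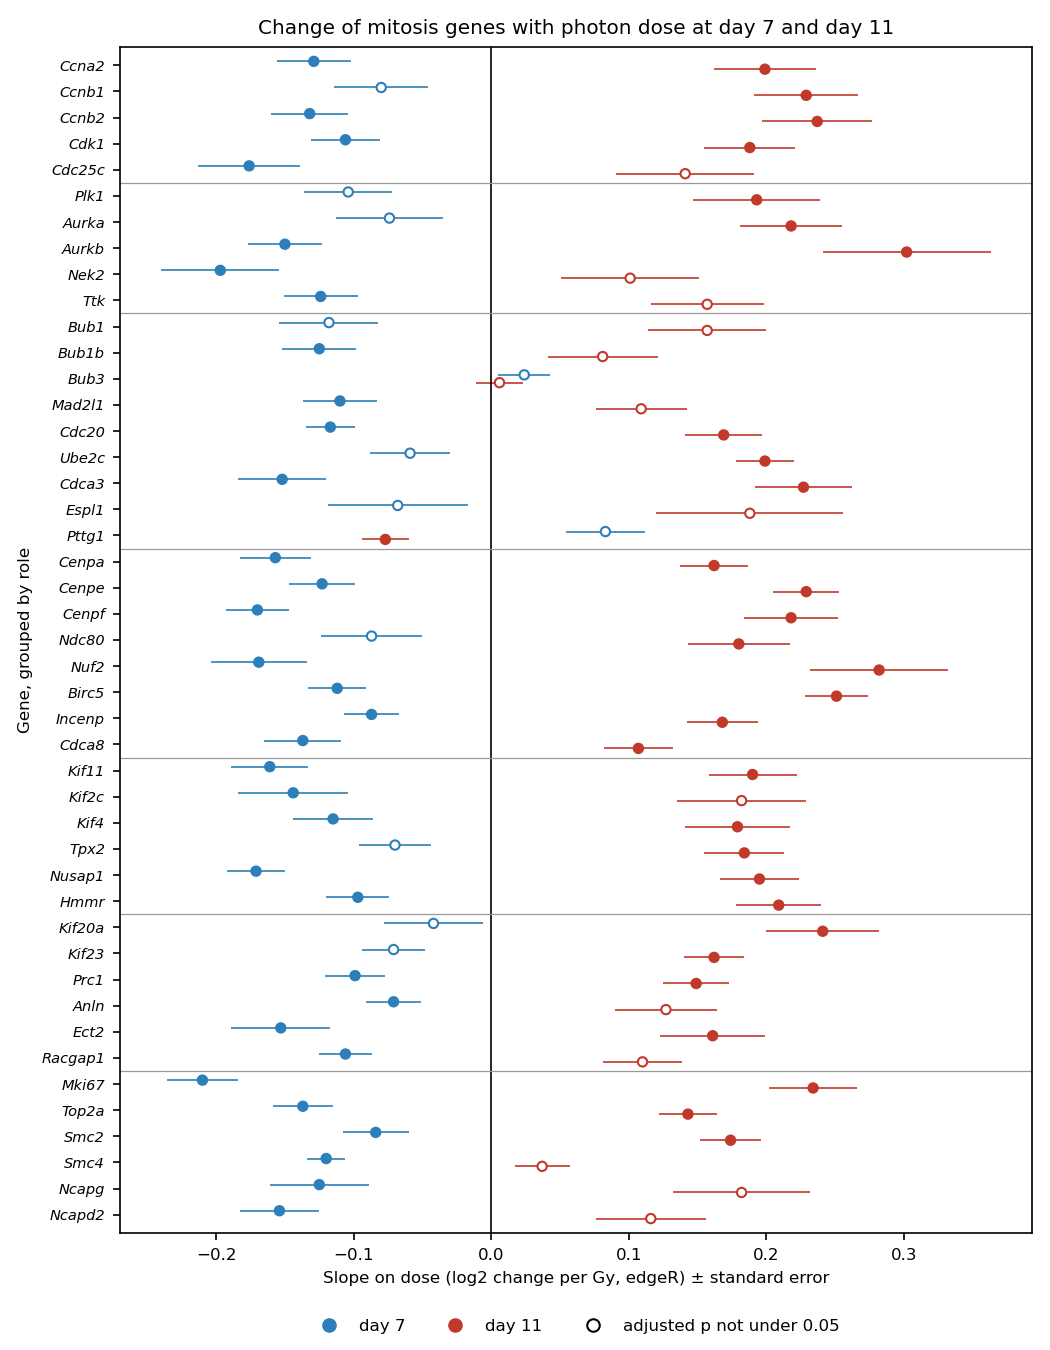
Slope on dose (x axis, log2 change per Gy from edgeR) of each of the 45 members (rows, grouped by role) at day 7 in blue and day 11 in red, with bars for 1 standard error and open circles for an adjusted p not under 0.05. In 43 rows the blue point lies left of 0 and the red point right of 0, while both Bub3 points lie near 0 and the Pttg1 points have the opposite order.

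The cyclins and CDK1 drive entry into mitosis, and Cdc25c is the phosphatase that activates CDK1. All 5 of these members fell from day 5 to day 11, with a median of -2.77. At 7 Gy, 4 were lower at day 7 (all but Ccnb1) and 4 were higher at day 11 (all but Cdc25c). Cdk1, the mitotic kinase itself, had 60.3, 51.7 and 69.3 CPM at day 5, 41.2, 34.2 and 35.3 at day 7 and 10.0, 11.8 and 11.5 at day 11 without irradiation. At day 7 it had 38.8, 45.1 and 27.4 CPM at 2 Gy, 37.9, 33.9 and 32.8 at 4 Gy and 20.2, 25.2 and 20.6 at 7 Gy. At day 11 it had 9.4, 12.3 and 6.92 CPM at 2 Gy, 14.6, 13.3 and 12.1 at 4 Gy and 28.5, 25 and 21.8 at 7 Gy. The 3 unirradiated days did not overlap, and the 7 Gy libraries were the lowest of day 7 and the highest of day 11. The log2 change of Cdk1 was -2.31 (SE 0.15, adjusted p = 2.81e-07) from day 5 to day 11, -0.75 (SE 0.16, adjusted p = 0.013) for 7 Gy at day 7 and 1.15 (SE 0.20, adjusted p = 0.0141) for 7 Gy at day 11. The day 7 call of Cdk1 was lost without the mTG11 library at 0 Gy or at 7 Gy (edgeR adjusted p = 0.0514 and 0.0606). Ccnb1, cyclin B1, had 64.9, 55.4 and 53.8 CPM at day 5, 32.8, 21.5 and 24.8 at day 7 and 8.7, 4.83 and 4.63 at day 11 without irradiation. With 7 Gy it had 19.2, 22.4 and 15 CPM at day 7 and 17.7, 18.5 and 17.1 at day 11. Its 7 Gy libraries overlapped the 0 Gy libraries at day 7 and lay above them at day 11. Its log2 change was -3.08 (SE 0.22, adjusted p = 6.49e-07) over the days, -0.49 (SE 0.23, adjusted p = 0.229) at day 7 and 1.49 (SE 0.29, adjusted p = 0.0218) at day 11.

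The mitotic kinases Plk1, Aurka, Aurkb, Nek2 and Ttk control the centrosomes, the spindle and chromosome attachment. All 5 fell over the days (median -2.89). At 7 Gy, Aurkb, Nek2 and Ttk were lower at day 7, and Aurka and Aurkb were higher at day 11. Aurkb, the kinase of the chromosomal passenger complex, had 30.2, 22.4 and 18.5 CPM at day 5, 14.6, 13.8 and 13.6 at day 7 and 1.43, 1.07 and 3.02 at day 11 at 0 Gy. Its day 7 levels after irradiation were 9.49, 11.5 and 8.76 CPM at 2 Gy, 9.91, 11.8 and 9.96 at 4 Gy and 5.26, 5.65 and 7.98 at 7 Gy. Its day 11 levels were 2.01, 0.836 and 1.07 CPM at 2 Gy, 6.49, 3.82 and 3.04 at 4 Gy and 7.16, 5.94 and 6.28 at 7 Gy. Each irradiated group of day 7 lay below the unirradiated one. At day 11 the 7 Gy libraries lay above all 0 Gy libraries and the 2 Gy libraries overlapped them. The lowest 4 Gy library of day 11 (3.04 CPM) was nearly equal to the highest 0 Gy library (3.02 CPM), so these groups were not clearly separate. Its lowest library over the 27 held 3 counts, which is the limit of counting. The log2 change was -3.53 (SE 0.32, adjusted p = 3.4e-06) over the days, -1.16 (SE 0.19, adjusted p = 0.00217) for 7 Gy at day 7 and 1.77 (SE 0.40, adjusted p = 0.0427) for 7 Gy at day 11. Plk1, Polo-like kinase 1, had 67, 68 and 61 CPM at day 5, 35.2, 29.7 and 26 at day 7 and 6.9, 4.56 and 5.5 at day 11, and with 7 Gy 25.1, 15.4 and 17 at day 7 and 10.5, 14.8 and 13.7 at day 11. The 7 Gy libraries lay below the 0 Gy libraries at day 7 and above them at day 11 without overlap, yet neither difference passed. The log2 change of Plk1 for 7 Gy was -0.66 (SE 0.22, adjusted p = 0.0969) at day 7 and 1.14 (SE 0.33, adjusted p = 0.11) at day 11, with adjusted p = 0.0143 and 0.0388 with the culture as a block. Plk1 was also called at day 11 in 1 fit of all 27 libraries (edgeR adjusted p = 0.0348) and with only the 2 groups in the fit (0.0389), and at both days with no filter on low counts (0.00184 at day 7 and 0.000314 at day 11).

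Among the spindle checkpoint and anaphase genes, 8 of 9 fell over the days and Pttg1 rose. At 7 Gy, Bub1b, Cdc20, Cdca3 and Mad2l1 were lower at day 7, and Cdc20, Cdca3 and Ube2c were higher at day 11. Ube2c, the ubiquitin-conjugating enzyme of the anaphase-promoting complex, had 168, 175 and 163 CPM at day 5, 81.1, 69.7 and 77.3 at day 7 and 21.6, 20.0 and 14.1 at day 11 at 0 Gy. The irradiated groups of day 7 had 77.5, 98.2 and 81.7 CPM at 2 Gy, 101, 90.2 and 78.2 at 4 Gy and 64.2, 67.5 and 39.4 at 7 Gy. Those of day 11 had 23.3, 25.4 and 17.3 CPM at 2 Gy, 31.4, 30.6 and 36.2 at 4 Gy and 47.3, 51.9 and 44.4 at 7 Gy. At day 7 the 2 and 4 Gy libraries reached above the unirradiated ones, and at day 11 the 4 Gy and 7 Gy libraries formed 2 separate steps above 0 Gy. The log2 change was -3.03 (SE 0.13, adjusted p = 1.73e-08) over the days, -0.42 (SE 0.17, adjusted p = 0.151) for 7 Gy at day 7 and 1.33 (SE 0.16, adjusted p = 0.00277) for 7 Gy at day 11. Cdc20, the activator that the checkpoint holds back, had 128, 121 and 124 CPM at day 5, 59.9, 50.9 and 53.3 at day 7 and 15.7, 8.31 and 13.2 at day 11, and with 7 Gy 30.6, 36.2 and 29.3 at day 7 and 21.8, 29.3 and 31.4 at day 11. The 7 Gy libraries were separate from the 0 Gy libraries at both days. Its log2 change was -3.17 (SE 0.16, adjusted p = 6.52e-08) over the days, -0.78 (SE 0.12, adjusted p = 0.00164) at day 7 and 1.09 (SE 0.21, adjusted p = 0.0196) at day 11. Bub1b, the checkpoint kinase BUBR1, had 22.1, 14.3 and 19.6 CPM at 0 Gy and 11.3, 8.99 and 10.1 at 7 Gy at day 7, and 10.5, 5.09 and 6.69 and 10.3, 9.54 and 10.9 at day 11. Its groups were separate at day 7 and overlapped at day 11, with log2 changes of -0.89 (SE 0.19, adjusted p = 0.0135) and 0.42 (SE 0.28, adjusted p = 0.538). The day 7 call was lost without the mTG11 or the mTG14 library at 0 Gy or the mTG12 library at 7 Gy, with edgeR adjusted p between 0.0528 and 0.0589.

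The 8 genes of the centromere, the kinetochore and the passenger complex all fell over the days (median -2.58). At 7 Gy, 7 were lower at day 7 (all but Ndc80) and 6 were higher at day 11 (all but Ndc80 and Cdca8), and all 8 rose with dose at day 11. Birc5, survivin, a subunit of the passenger complex, had 145, 145 and 133 CPM at day 5, 77.3, 68.2 and 68.4 at day 7 and 11.4, 9.25 and 10.3 at day 11 at 0 Gy. At day 7 it had 67.1, 91.1 and 62.8 CPM at 2 Gy, 69.4, 62 and 53.9 at 4 Gy and 41.1, 46.5 and 40.8 at 7 Gy. At day 11 it had 15.1, 14.8 and 10.1 CPM at 2 Gy, 18.6, 18.6 and 23.7 at 4 Gy and 36.3, 37.6 and 29.4 at 7 Gy. The unirradiated days were far apart, and at day 11 the 4 Gy libraries lay between the 0 Gy and the 7 Gy libraries without overlap. The log2 change was -3.62 (SE 0.11, adjusted p = 2.44e-09) over the days, -0.74 (SE 0.14, adjusted p = 0.00498) for 7 Gy at day 7 and 1.70 (SE 0.18, adjusted p = 0.00205) for 7 Gy at day 11, a 3.25-fold rise. Cenpa, the histone H3 variant of centromeres, had 57.2, 64.6 and 69.1 CPM at day 5, 37.8, 39.8 and 31.5 at day 7 and 10.0, 9.65 and 9.35 at day 11, and with 7 Gy 19.8, 21.1 and 13 at day 7 and 21.5, 19.8 and 20.2 at day 11. Both 7 Gy groups were separate from their controls, with log2 changes of -1.02 (SE 0.18, adjusted p = 0.00371) and 1.05 (SE 0.17, adjusted p = 0.0123). Cenpf, an outer kinetochore protein, changed by -1.16 (SE 0.18, adjusted p = 0.00153) at day 7 and 1.48 (SE 0.28, adjusted p = 0.0175) at day 11. Nuf2, of the microtubule-binding NDC80 complex, changed by -1.22 (SE 0.27, adjusted p = 0.0148) and 1.69 (SE 0.35, adjusted p = 0.03).

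The spindle motors and microtubule proteins Kif11, Kif2c, Kif4, Tpx2, Nusap1 and Hmmr all fell over the days, within a narrow range of -3.14 (Kif2c) to -2.62 (Kif11). At 7 Gy, 5 were lower at day 7 (all but Tpx2) and 4 were higher at day 11 (all but Kif2c and Kif4). Kif11, the motor that pushes spindle poles apart, had 49.8, 42.6 and 42.5 CPM at day 5, 20.7, 20.2 and 24.7 at day 7 and 7.38, 5.63 and 6.69 at day 11 at 0 Gy. Its day 7 levels after irradiation were 23.6, 21.7 and 16.9 CPM at 2 Gy, 17.5, 11.2 and 18.2 at 4 Gy and 11, 10.1 and 9.9 at 7 Gy. Its day 11 levels were 5.88, 8.17 and 5.37 CPM at 2 Gy, 9.61, 10.7 and 7.21 at 4 Gy and 18.2, 13.9 and 13.9 at 7 Gy. The 7 Gy libraries were separate from the 0 Gy libraries at both days, and the 2 Gy libraries overlapped them at both. The log2 change of Kif11 was -2.62 (SE 0.17, adjusted p = 2.94e-07) over the days, -1.09 (SE 0.21, adjusted p = 0.00621) for 7 Gy at day 7 and 1.19 (SE 0.23, adjusted p = 0.0196) for 7 Gy at day 11. Tpx2, which activates Aurora A on the spindle, had 50.3, 38 and 38.7 CPM at 0 Gy and 35.1, 31.5 and 23.7 at 7 Gy at day 7, and 14, 13.4 and 11 and 28.3, 28.7 and 31.4 at day 11. The groups were separate at both days, although the day 7 difference did not pass. The log2 changes were -0.50 (SE 0.18, adjusted p = 0.115) at day 7, with adjusted p = 0.0435 with the culture as a block, and 1.16 (SE 0.21, adjusted p = 0.0141) at day 11.

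The central spindle and cytokinesis genes complete the division of the cell. All 6 fell over the days, from -3.42 for the motor Kif20a to -1.41 for the actin scaffold Anln. At 7 Gy, Prc1, Ect2 and Racgap1 were lower at day 7, and Prc1, Kif20a and Kif23 were higher at day 11. Prc1, which bundles midzone microtubules, had 103, 92.2 and 97.9 CPM at day 5, 59.8, 51.2 and 44 at day 7 and 19.3, 22.1 and 18 at day 11 at 0 Gy. The irradiated groups of day 7 had 47.1, 62.5 and 48.4 CPM at 2 Gy, 50.4, 46.1 and 48.2 at 4 Gy and 29.1, 37.6 and 30.1 at 7 Gy. Those of day 11 had 20.1, 19.2 and 17.8 CPM at 2 Gy, 34.6, 23.6 and 29.9 at 4 Gy and 44.4, 34.9 and 35.6 at 7 Gy. At day 11 the 4 Gy and 7 Gy libraries lay above the 0 Gy libraries, and at day 7 only the 7 Gy libraries were separate from them. The log2 change was -2.16 (SE 0.12, adjusted p = 1.16e-07) over the days, -0.69 (SE 0.14, adjusted p = 0.00949) for 7 Gy at day 7 and 0.92 (SE 0.16, adjusted p = 0.0141) for 7 Gy at day 11. Anln had 27.4, 27 and 27 CPM at 0 Gy and 22.3, 21.1 and 16 at 7 Gy at day 7, and 15.7, 13.9 and 15.4 and 30.1, 21.1 and 24.9 at day 11. Its groups did not overlap at either day, with log2 changes of -0.46 (SE 0.14, adjusted p = 0.0599) and 0.72 (SE 0.25, adjusted p = 0.179), and with the culture as a block the adjusted p at day 7 was 0.0289.

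The 6 genes of chromosome structure are the proliferation antigen Mki67, topoisomerase Top2a and the condensin subunits Smc2, Smc4, Ncapg and Ncapd2. All 6 fell over the days, and all 6 fell with dose at day 7. Mki67, which coats mitotic chromosomes, had 299, 218 and 232 CPM at day 5, 130.1, 114 and 117 at day 7 and 24.2, 23.7 and 26.5 at day 11 at 0 Gy. At day 7 it had 111, 135 and 79.3 CPM at 2 Gy, 83, 75 and 94.2 at 4 Gy and 39.1, 45.2 and 47.2 at 7 Gy. At day 11 it had 22.1, 47.2 and 22 CPM at 2 Gy, 51.2, 42.6 and 37 at 4 Gy and 83.9, 77.1 and 65.8 at 7 Gy. At both days the 4 Gy libraries were separate from the 0 Gy libraries and lay between them and the 7 Gy libraries. The log2 slope of Mki67 was -0.21 (SE 0.03, adjusted p = 0.000148) per Gy at day 7 and 0.23 (SE 0.03, adjusted p = 0.002) per Gy at day 11. Top2a, which untangles DNA before chromosomes part, had 397, 338 and 382 CPM at day 5, 215, 165 and 172 at day 7 and 61.9, 51.5 and 59.1 at day 11, and with 7 Gy 101, 94.4 and 89.3 at day 7 and 109, 107 and 110.1 at day 11. The 7 Gy groups were separate from their controls at both days, and the 7 Gy libraries of day 11 lay above those of day 7. The log2 changes of Top2a were -2.55 (SE 0.12, adjusted p = 3.93e-08) over the days, -0.95 (SE 0.15, adjusted p = 0.00177) for 7 Gy at day 7 and 0.88 (SE 0.12, adjusted p = 0.00637) for 7 Gy at day 11.

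**Figure D4:**
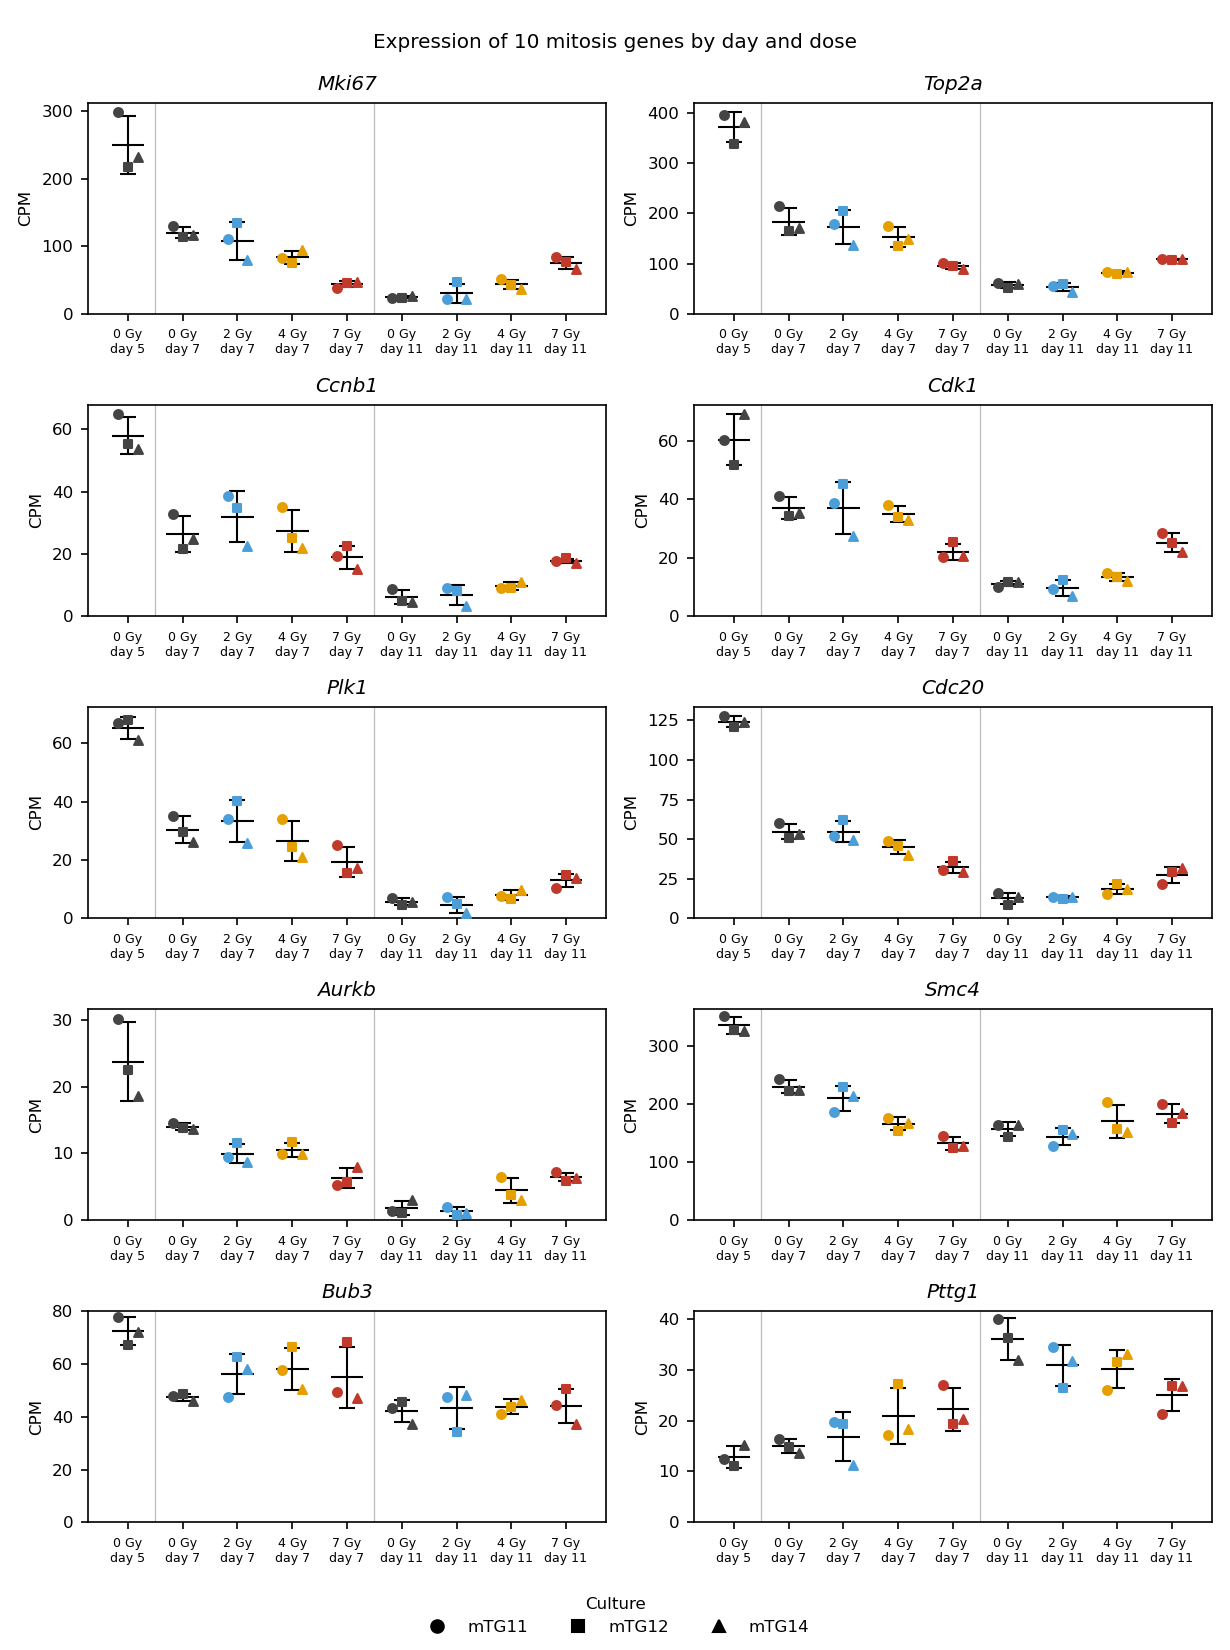
CPM (y axis, from 0) of 10 members in each of the 9 groups (x axis), with a symbol for each library by culture, a line for the group mean and bars for the SD. Mki67, Top2a, Ccnb1, Cdk1, Plk1, Cdc20 and Aurkb are highest at day 5, lowest of day 7 at 7 Gy and highest of day 11 at 7 Gy, Bub3 differs little between doses, and Pttg1 is lowest at day 5 and highest at 0 Gy at day 11.

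Smc4, Bub3 and Pttg1 departed most from the common pattern. Smc4, the second core ATPase of condensin, had 352, 327 and 325 CPM at day 5, 243, 222 and 223 at day 7 and 163, 142 and 164 at day 11 at 0 Gy. Its day 7 levels after irradiation were 186, 228 and 214 CPM at 2 Gy, 176, 154 and 168 at 4 Gy and 144, 124 and 127 at 7 Gy. Its day 11 levels were 127, 155 and 148 CPM at 2 Gy, 203, 156 and 152 at 4 Gy and 199, 167 and 184 at 7 Gy. Its lowest group was 7 Gy at day 7, where the other falling members were lowest at 0 or 2 Gy at day 11. It fell by 1.94-fold over the days (-0.95 (SE 0.09, adjusted p = 5.84e-06)), was lower at 7 Gy at day 7 (-0.81 (SE 0.10, adjusted p = 0.000372)) and did not pass at day 11 (0.19 (SE 0.14, adjusted p = 0.594)). Bub3, which also has roles outside the checkpoint, had 77.9, 67.3 and 72.1 CPM at day 5, 47.8, 48.5 and 45.8 at day 7 and 43.3, 45.6 and 37.4 at day 11 at 0 Gy. The irradiated groups of day 7 had 47.6, 62.5 and 58.1 CPM at 2 Gy, 57.9, 66.4 and 50.4 at 4 Gy and 49.4, 68.2 and 47.1 at 7 Gy. Those of day 11 had 47.4, 34.1 and 48.3 CPM at 2 Gy, 40.9, 43.9 and 46.5 at 4 Gy and 44.3, 50.4 and 37.4 at 7 Gy. Day 5 lay above the later unirradiated days, the 7 Gy libraries overlapped the 0 Gy libraries at both days, and Bub3 was not called for any dose at either day. The end of Bub3 lies inside Fgfr2 on the opposite strand in GRCm39, and 8 other members have such a neighbour at their end (Ccna2, Aurka, Cdc20, Ube2c, Kif20a, Prc1, Anln and Ncapg). Whether strand was used in counting is not given in the sources used here, so reads of such pairs cannot be told apart.

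Pttg1 had a log2 change of opposite sign to the other 44 members from day 5 to day 11, and to most of them over the doses. It had 12.4, 11 and 15.1 CPM at day 5, 16.4, 14.8 and 13.6 at day 7 and 40.0, 36.2 and 31.9 at day 11 at 0 Gy. At day 7 it had 19.8, 19.4 and 11.3 CPM at 2 Gy, 17.2, 27.1 and 18.3 at 4 Gy and 27.1, 19.3 and 20.2 at 7 Gy. At day 11 it had 34.5, 26.5 and 31.7 CPM at 2 Gy, 25.9, 31.5 and 33.1 at 4 Gy and 21.3, 26.8 and 26.8 at 7 Gy. The unirradiated day 11 libraries were above all libraries of days 5 and 7 at 0 Gy, the 7 Gy libraries were above the 0 Gy libraries at day 7, and they were below them at day 11. The rise from day 5 to day 11 was 3.07-fold. For 7 Gy the log2 change was 0.56 (SE 0.22, adjusted p = 0.152) at day 7, which did not pass, and -0.57 (SE 0.13, adjusted p = 0.0405) at day 11, where 0.462% of all genes were lower. The call at day 11 was lost without any 1 of the 6 libraries compared, with edgeR adjusted p between 0.0758 and 0.176, with library totals in place of TMM factors (0.0936), with thinned counts (0.053), with only the 2 groups in the fit (0.0578) and in 1 fit of all 27 libraries (0.102). Counts of Pttg1 were whole numbers in 70.4% of libraries, as were 70.7% of the values of all members. The rule behind values that are not whole is not given in the sources used here.

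The days were then compared directly. The difference between the 7 Gy responses, day 11 minus day 7, was positive for 42 members (2.20% of all genes), with a median of 1.93. It was largest for Mki67 at 3.07 (SE 0.32, adjusted p = 6.74e-06) and smallest for Bub3 at -0.14 (SE 0.20, adjusted p = 0.841). For Pttg1 it was -1.11 (SE 0.26, adjusted p = 0.0182), a direction called for 0.807% of all genes, and Espl1, the separase gene, at 2.12 (SE 0.60, adjusted p = 0.0546), and Bub3 were not called. With the culture as a block Espl1 was called (edgeR adjusted p = 0.0386). The difference between the slopes was positive for 42 members (2.96% of all genes), with a median of 0.30 log2 units per Gy, and was largest for Nuf2 at 0.46 (SE 0.06, adjusted p = 2.39e-05). Nuf2 had 9.38, 11.9 and 9.39 CPM at 0 Gy and 4.64, 3.47 and 5.06 at 7 Gy at day 7, and 2.62, 1.07 and 3.02 and 9.44, 6.3 and 6.42 at day 11, separate at both days. By role, the response differed between the days for 5 of 5 cyclins and CDK1 regulators, 5 of 5 kinases, 8 of 8 centromere and kinetochore genes, 6 of 6 spindle genes, 6 of 6 cytokinesis genes, 6 of 6 chromosome genes and, in the positive direction, 6 of 9 checkpoint and anaphase genes. Of the 18 genes given with full values, 17 were called, and 14 remained called without any 1 library. The call of Bub1b was lost without any 1 of 8 of the 12 libraries, that is, in all but the 0 Gy mTG12 and 7 Gy mTG11 libraries of day 7 and the 0 Gy mTG11 and 7 Gy mTG12 libraries of day 11 (edgeR adjusted p of 0.0595 to 0.094), and with thinned counts (0.0992). That of Pttg1 was lost without the 7 Gy mTG11 library of day 7 or of day 11 (0.0781 and 0.0541), and that of Anln without the 7 Gy mTG14 library of day 7 or the 7 Gy mTG11 library of day 11, with adjusted p = 0.0602 and 0.0618.

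**Figure D5:**
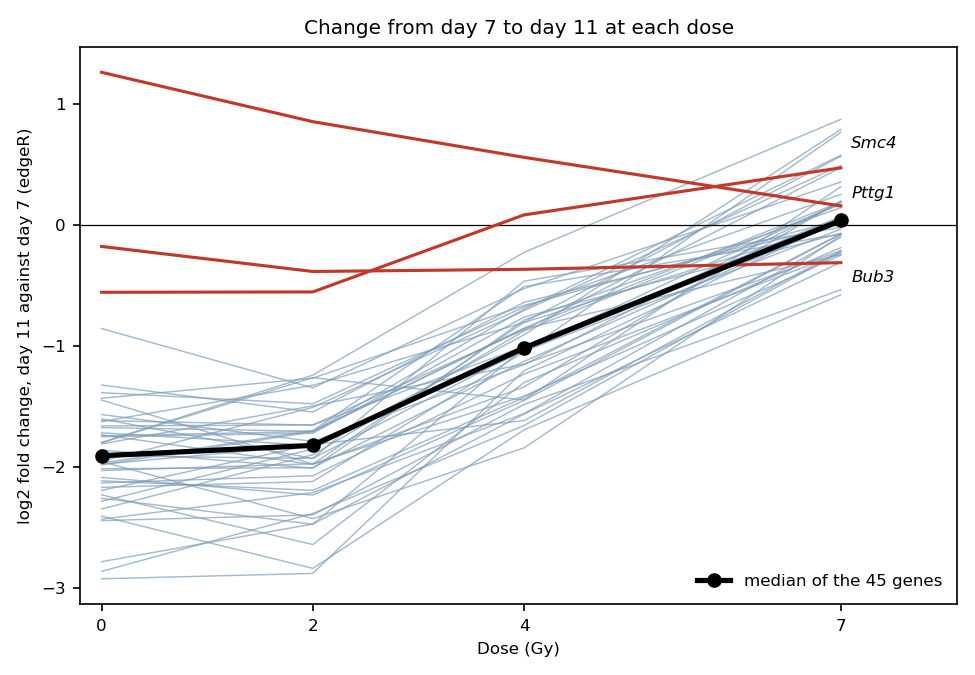
Log2 change from day 7 to day 11 (y axis) at 0, 2, 4 and 7 Gy (x axis), with a line for each of the 45 members, the median in black and Smc4, Pttg1 and Bub3 in red. The median lies at -1.91 at 0 Gy, -1.82 at 2 Gy, -1.01 at 4 Gy and 0.04 at 7 Gy.

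Read the other way, the change from day 7 to day 11 depended on dose. At 0 Gy the median change of the members was -1.91 in the fit of the unirradiated libraries and -1.91 in the fit of both irradiated days. At 2 Gy 43 members fell (9.68% of all genes) with a median of -1.82. At 4 Gy 36 fell (9.43%) with a median of -1.01. At 7 Gy edgeR called 0 members lower (6.17% of all genes), 2 were lower at an unadjusted p under 0.05, DESeq2 also called 0 lower, and 3 were higher (6.15% of all genes), namely Mki67 at 0.79 (SE 0.22, adjusted p = 0.0187), Smc4 at 0.47 (SE 0.13, adjusted p = 0.0141) and Cenpf at 0.88 (SE 0.24, adjusted p = 0.0161). The median at 7 Gy was 0.04. The level reached at 7 Gy at day 11 was not that of unirradiated organoids at day 7: 30 members were lower (5.71% of all genes, median -0.76), among them Plk1 at -1.23 (SE 0.26, adjusted p = 0.00208) and Top2a at -0.76 (SE 0.14, adjusted p = 0.000553), and 18 were lower without the 7 Gy mTG12 library of day 11. Pttg1 was higher, at 0.73 (SE 0.19, adjusted p = 0.0121).

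Other genes of the cell cycle are given beside the members from lists made with earlier results of these data known. Of 132 other mitosis genes, 102 fell and 4 rose from day 5 to day 11, against 20.1% and 21.3% of all genes. At 7 Gy at day 7, 26 were lower and 3 higher, against 3.75% and 3.20%, and at 7 Gy at day 11, 17 of 131 tested were higher, against 1.06%. Their median log2 changes were -1.52, -0.35 and 0.41, each nearer 0 than the median of the members. Foxm1, the transcription factor of many G2 genes, had a log2 change of -2.66 (SE 0.32, adjusted p = 3.74e-05) over the days. At 7 Gy its log2 change was -0.62 (SE 0.24, adjusted p = 0.157) at day 7 and 1.11 (SE 0.33, adjusted p = 0.126) at day 11, neither of which passed, and the difference between the days was 1.76 (SE 0.42, adjusted p = 0.0193). Psrc1, a spindle protein gene that is also a p53 target, went up at 7 Gy at day 7, by 1.12 (SE 0.21, adjusted p = 0.00558).

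Of 52 DNA replication and G1/S genes, 50 fell over the days, 7 were lower at 7 Gy at day 7 and 14 were higher at 7 Gy at day 11, where the shares of all genes were 20.1%, 3.75% and 1.06%. Their medians were -1.64, -0.37 and 0.61. Tk1, a thymidine kinase of S phase, changed by -0.95 (SE 0.21, adjusted p = 0.0142) at day 7 and 1.46 (SE 0.28, adjusted p = 0.0187) at day 11. Rrm2, the regulated subunit of ribonucleotide reductase, had a log2 value of 0.06 (SE 0.22, adjusted p = 0.918) for 7 Gy at day 7, which did not pass, and rose by 1.496 (SE 0.27, adjusted p = 0.015) at day 11. Of the 13 arrest genes and D cyclins, 7 were higher (3.20% of all genes) and 2 lower (3.75%) at 7 Gy at day 7. Cdkn1a, which encodes the CDK inhibitor p21, rose by 1.29 (SE 0.12, adjusted p = 3.28e-05), Mdm2, the p53 ligase, by 1.72 (SE 0.15, adjusted p = 3.12e-05) and Ccng1, a p53 target, by 1.76 (SE 0.17, adjusted p = 4.07e-05). At 7 Gy at day 11 edgeR called 0 of the 13, DESeq2 called 1 higher and 1 lower, and at an unadjusted p under 0.05 edgeR had 4 higher and 1 lower. The value of Cdkn1a was 0.12 (SE 0.12, adjusted p = 0.725). The difference between the days was negative for 5 of them (0.807% of all genes), with -1.13 (SE 0.17, adjusted p = 0.000289) for Cdkn1a.

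Levels of some marker lists of other cells differed between the same groups. Over the unirradiated days, where the members fell most, the thyrocyte list summed to 53.1 to 68.2 CPM at day 5, 39.8 to 51 at day 7 and 201 to 285 at day 11. Simple epithelium markers (Krt8, Krt18, Krt19, Epcam and Cdh1) summed to 889.8 to 1078, 2084 to 3158 and 1867 to 2656 CPM on these days, and immune markers, mostly Cd68, to 5.52 to 15.6, 18.2 to 30.9 and 38.1 to 65.5. The thyrocyte sum was thus higher at day 11 than at both earlier days, the simple epithelium sum higher from day 7, and the immune sum higher at each later day, without overlap. The immune sum followed Cd68 alone, with means of 6.29, 18.7 and 44.8 CPM. Lyz2 had means of 4.10, 6.58 and 3.64 CPM and Csf1r of 0.380, 0.283 and 0.0794. Ptprc had 12 counts in the 27 libraries together and Cd3e had 0, so this sum does not stand for immune cells. C cell markers, nearly all Calcb, summed to 18.3 to 39.2 CPM at 0 Gy and 77.2 to 89.4 at 7 Gy at day 7, and to 2.2 to 4.76 and 8.47 to 14.5 at day 11. Calca, the defining C cell gene, was at 0 in 14 of 27 libraries. Multiciliated cell markers summed to 20.1 to 43.3 CPM at 0 Gy and 5.73 to 15.9 at 7 Gy at day 11 and were 0 at day 5. At 7 Gy at day 11 the thyrocyte list, there mostly Duox2 and Duoxa2, summed to 133 to 207 CPM. Their part in the changes of the members was not tested.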

How the data were processed

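RNA from unirradiated and irradiated thyroid organoids was measured in 27 libraries (9 groups of 3). The authors made Smart3SEQ libraries from RNA of the organoids, sequenced 75-base single reads and deposited raw estimated counts for each gene symbol, of which 56.3% of the values above 0 were whole numbers. The submitters' processing notes name STAR, edgeR and GRCm39 without versions or parameters, and the counting tool and its strand setting are not given in the sources used here. The design text speaks of 4 mice, the labels number the mice 1 to 3 and the column names give 3 cultures (mTG11, mTG12, mTG14), with no stated link between culture and mouse number, so columns were placed in groups by day and dose.

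The members and the gene lists were chosen with earlier results of these data known. All 45 members may be named, and values in every library of the groups compared are given for a set of members with at least 1 from each role, and for the members named as having the largest or smallest change in a comparison, the latter only in the libraries that comparison turns on, apart from Pttg1 and Bub3. Counts were rounded and tested with edgeR 4.0.16 in R 4.3.3 (TMM, genes with 10 or more counts in the fitted libraries together, quasi-likelihood test, Benjamini-Hochberg adjustment over all genes at 0.05). The 9 unirradiated libraries, the 12 libraries of day 7 and the 12 of day 11 were fitted separately, and days were compared across doses in 1 fit of 24 libraries. Slopes took dose in Gy as a number. DESeq2 1.42.0, other filters and scalings, other sets of libraries, unrounded and thinned counts, a culture block and leaving out each library were the alternatives. The tests were tested on simulated data. Deviations of libraries from their group means correlated within a culture. The mean r was 0.263 over days, 0.348 at day 7 and 0.419 at day 11 (lowest 0.134). Between cultures it was -0.132, -0.174 and -0.208. Deviations from the mean of 3 libraries sum to 0, so these negative values follow from the positive ones and add no separate evidence. The block was taken as a pairing from the correlations within a culture, and it rests on the column names. Library totals were 2528866 to 5723150 counts, and limits from counts cover counting error only. Replicates differed beyond sampling noise (chi-square per degree of freedom of at least 3.39 over 27 pairs), so no library was counted as a repeat. Tables were made with Python 3.11.15 and pandas 2.3.3. The values of 1 marker gene are not reported here.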

Additional observations from a re-analysis of the deposited data

Results flagged for a closer look

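The results below drew attention because the response to radiation differed between day 7 and day 11 in a test of the difference itself, as the interaction of day and dose in edgeR over all genes. For 7 Gy the response was more positive at day 11 in 42 members (2.20% of all genes) and less positive in 1, Pttg1 (0.807% of all genes). It was also more positive in 45 of 132 other mitosis genes and 20 of 52 DNA replication and G1/S genes, and less positive in 5 of 13 arrest genes and D cyclins. For the slope on dose the counts were 42 members more positive (2.96% of all genes) and 1 less (1.00% of all genes), with 51, 24 and 5 in the other lists in the same order. The difference in the log2 response to 7 Gy was 3.07 for Mki67, 2.96 for Aurkb, 2.01 for Ccnb1, 1.93 for Cdk1, 1.87 for Top2a, 1.83 for Plk1, 1.03 for Smc4 and -1.11 for Pttg1. Each difference is taken over the 0 Gy and 7 Gy libraries of both days, so the change from day 7 to day 11 at 0 Gy enters it.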

How the results depend on the processing

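Where over 20 members were called, their count stayed within 1.5 times under every alternative other than leaving out a library. At 4 Gy at day 7 (1 member called) DESeq2 called 4, no filter on low counts 7, a filter of 50 counts 3, thinned counts 2, only the compared groups 3 and the replicate block 5, and leaving out 1 library gave 0 to 1. At 4 Gy at day 11 (0 called) DESeq2 called 3, no filter 13, the replicate block 5 and 1 fit of all 27 libraries 1. From day 7 to day 11 at 7 Gy (0 lower) no filter called 1. Leaving out 1 library gave 7 to 20 members at 7 Gy at day 11 (25 with all) and 18 to 27 for 7 Gy at day 11 against 0 Gy at day 7 (30 with all). Elsewhere these ranges were 21 to 27 at 7 Gy at day 7, 25 to 36 and 24 to 34 on the slopes at day 7 and day 11, and 39 to 42 for the difference between days. The sign reversed for Bub3 alone among the 18 genes: its slope at day 11 (0.006) was -0.010 with thinned counts and -0.004 to 0.019 without 1 library, its change at 7 Gy at day 11 (0.035) was -0.113 and -0.044 to 0.133, and its difference between days (-0.135) was -0.236 to 0.011 without 1 library. The culture as a replicate block moved no other count of members by more than 1.5 times. Causes were not tested. Depth limits the lowest members: Espl1, with 328 counts over the 27 libraries, had a standard error of 0.60 on the difference between days, against 0.32 for Mki67.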
